A study of Mus musculus with 17 samples.

Results

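The clustered histone genes are the replication-dependent histone genes of the mouse, and they were chosen here as the protein-coding genes whose GENCODE symbol on GRCm38 starts with Hist1h, Hist2h, Hist3h or Hist4h. This gave 67 of the 53679 genes in the count tables: 6 for the linker histone H1, 18 for H2A, 18 for H2B, 12 for H3 and 13 for H4. On chromosome 13 lie 54 of them, on chromosome 3 lie 10, on chromosome 11 lie 2 and on chromosome 6 lies 1. The 17 libraries came from CD8+ T cells of C57BL/6 mice, either Cblb knockout (KO) or wild type (WT). Cblb encodes Cbl-b, a ubiquitin ligase that limits signalling from the T cell antigen receptor. There were 3 KO and 3 WT libraries of unstimulated cells, for which the labels give no time. Cells stimulated for 12 h were given anti-CD3, an antibody to the antigen receptor complex (3 KO and 3 WT libraries), or anti-CD3 with anti-CD28, which adds costimulation (3 KO and 2 WT libraries). Replicate 1 of the last WT group was not analysed here. The labels give a purity above 99% CD8+ cells and do not say how the knockout was made or whether replicates came from separate mice, so p-values measure only how far these samples spread, and part of that may be technical.

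Most mRNAs end in a poly-A tail, but mRNAs of replication-dependent histones end just after a short stem-loop. The stem-loop binding protein (Slbp) and the U7 small nuclear ribonucleoprotein direct cleavage there, and the mRNAs are made mainly in S phase, when new DNA has to be packed into nucleosomes, and are degraded when DNA synthesis stops. H2A, H2B, H3 and H4 form the core of the nucleosome, and H1 binds the DNA between cores. The libraries were made from total RNA depleted of ribosomal RNA, without selection for poly-A, so such transcripts were retained. A resting T cell that receives signals through its antigen receptor and CD28 leaves quiescence and later enters S phase.

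The stem-loop was searched for after the stop codon of each gene in the transcripts of GENCODE M21, with the motif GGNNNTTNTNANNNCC on the transcript strand. It was present in 46 of the 52 genes with at least 16 annotated bases after the stop codon (88.5%), with complementary arms in all 46, against 57 of 21018 other protein-coding genes searched over the first 100 bases (0.271%). The stem-loop began 22 to 59 bases after the stop codon. In 15 genes the annotation held fewer than 16 bases there. The windows below run from the stem-loop to the bases that follow it, where the transcript is cut, and show the forms found in the genes described most closely. Capitals mark the 16 bases of the stem-loop, in which 6 bases of each arm flank a loop of 4.
Hist1h1c: GGCTCTTTTCAGAGCCaccactcc
Hist3h2a: GGCTCTTTTCAGAGCCacccacaa
Hist2h2ac: GGCTCTTTTTAGAGCCaccaaatc
Hist1h2bj: GGCTCTTTTCAGAGCCacgcacaa
Hist1h3f: GGCTCTTTTAAGAGCCacctccat
Hist1h4c: GGCCCTTTTCAGGGCCacccacaa
Hist1h4b: GGTCCTTTTCAGGACCactcactg
Hist2h4: GGCCCTTTTTAGGGCCaaccacag
On GRCm38 these windows lie at chr13:23739512-23739535 (plus strand), chr11:58955172-58955195 (plus), chr3:96220410-96220433 (minus), chr13:22043638-22043661 (plus), chr13:23544932-23544955 (plus), chr13:23698081-23698104 (minus), chr13:23757366-23757389 (plus) and chr3:96262931-96262954 (minus), in the order listed. The form of Hist1h1c was shared by 26 genes of H1, H2A, H2B and H3. The H4 genes differed from all other types within the arms of the stem. Of 12 with a stem-loop, 10 started with GGCCC and 2, Hist1h4b and Hist1h4j, with GGTCC. All 34 genes of the other types started with GGCTC. The sequence AATAAA, a poly-A signal, followed the stop codon in 19 genes, of which 15 also had the stem-loop.

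Promoters of the histone genes were set beside these sequences because many of the genes moved together across the libraries. Of the 67 genes, 61 matched a RefSeq promoter on GRCm38.p6 by symbol, synonym or identifier. The RefSeq start lay at most 98 bases from the GENCODE start. The 250 bases before the start were searched on both strands for CCAAT, the box bound by nuclear factor Y, and for TATAAA, the core promoter element that sets the start site, each counted whether or not it overlapped the other. CCAAT was present in 50 of the 61 (82.0%), against 33.8% of all 32851 promoters in the table, and TATAAA in 28 of the 61 (45.9%), against 12.4%. By type, CCAAT was present in 5 of 5 H1, 18 of 18 H2A, 16 of 16 H2B and 8 of 10 H3 promoters and in 3 of 12 H4 promoters. Neighbouring H2A and H2B genes on opposite strands can share a window, as Hist1h2ag and Hist1h2bj do, so these counts are not independent. The promoters of Hist1h2bj, Hist1h4h and Hist3h2a are shown, from 250 bases upstream to the base before the start, because the first 2 genes differed strongly between groups and the third followed another pattern. Capitals mark CCAAT or its complement ATTGG, and none of the 3 holds the exact letters TATAAA. Other forms of that element were not searched for, so this does not show that a promoter lacks it.
Hist1h2bj: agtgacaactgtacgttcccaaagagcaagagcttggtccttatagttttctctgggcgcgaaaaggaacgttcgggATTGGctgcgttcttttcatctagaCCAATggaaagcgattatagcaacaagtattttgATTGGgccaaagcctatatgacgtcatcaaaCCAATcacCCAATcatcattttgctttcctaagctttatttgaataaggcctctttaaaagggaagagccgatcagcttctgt
Hist1h4h: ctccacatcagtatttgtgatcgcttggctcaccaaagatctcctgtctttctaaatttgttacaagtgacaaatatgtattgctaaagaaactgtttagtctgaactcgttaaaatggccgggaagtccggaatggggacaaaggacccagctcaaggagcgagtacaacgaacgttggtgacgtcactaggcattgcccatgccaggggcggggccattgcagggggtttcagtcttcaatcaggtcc
Hist3h2a: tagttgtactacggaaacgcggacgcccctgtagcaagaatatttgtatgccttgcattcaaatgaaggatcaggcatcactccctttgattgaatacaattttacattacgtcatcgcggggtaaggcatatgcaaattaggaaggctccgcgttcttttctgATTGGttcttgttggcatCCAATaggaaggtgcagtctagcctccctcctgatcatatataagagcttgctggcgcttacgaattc
They lie at chr13:22042948-22043197, chr13:23530794-23531043 and chr11:58954435-58954684, all on the plus strand. Hist1h2bj held CCAAT 5 times in either direction, Hist3h2a 2 times and Hist1h4h 0 times. A match of letters describes the window and does not show that a factor binds there.

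Counts of histone genes were a small part of each library. The deposited counts totalled 16635826 to 38269033 per library, with 160059285 in KO unstimulated replicate 2, and the 67 genes held 2590 to 145888 of them, 0.0145% to 0.0911%. Cblb itself had 63.9 to 95.9 counts per 1000000 of the library's TMM-scaled total (CPM) in the 9 KO libraries, against 139.5 to 190.1 CPM in the 8 WT libraries, so the genotype labels and the counts did not conflict. The markers of CD8 T cells (5 genes) summed to 1543 to 3189 CPM in every library, while markers of CD4 T cells (3 genes), B cells (5), myeloid cells (5), NK cells (2), erythroid cells (4) and neutrophils (3) summed to at most 3.52, 27.2, 5.55, 4.02, 3.47 and 0.532 CPM. A trend with base composition ran through the libraries. It was measured in each library as the GC tilt: the median log2 deviation from the mean of protein-coding genes with 56% GC or more, less the same median for genes with 40% GC or less, leaving out the histone genes.

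Histone transcripts were more abundant in unstimulated KO cells than in unstimulated WT cells, and less abundant in KO cells than in WT cells under both antibodies. Summed over the 67 genes, unstimulated KO libraries had 847, 964 and 481 CPM, against 283, 313 and 363 CPM in unstimulated WT libraries. With anti-CD3 alone, KO libraries had 427, 433 and 572 CPM, against 303, 264 and 283 CPM in WT libraries. With both antibodies, KO libraries had 588, 289 and 152 CPM, against 855 and 815 CPM in the 2 WT libraries. The KO and WT libraries did not overlap in any of the 3 states. The KO libraries under both antibodies spread over the widest range relative to their mean, 343 ± 223 CPM (SD, n = 3). In bulk RNA, fewer cells with histone mRNA and less histone mRNA per cell cannot be told apart.

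**Figure D1:**
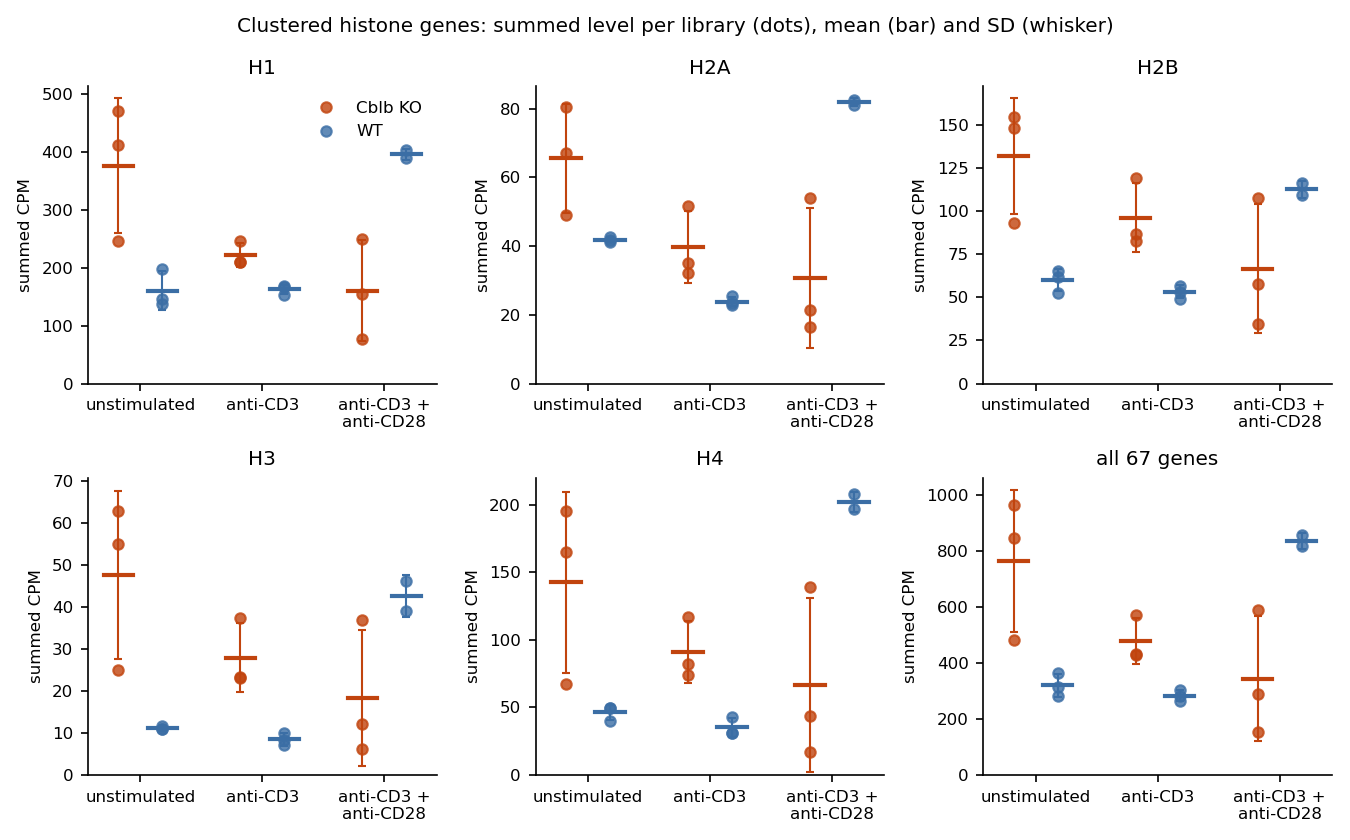
Summed level of the histone genes of each type and of all 67 genes, in CPM, per library (points), with the mean and SD of each group; Cblb KO stands left of WT in each stimulation state. The WT libraries with both antibodies, at 855 and 815 CPM over all genes, are above every other WT library, and the KO libraries with both antibodies spread between 152 and 588 CPM.

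Library by library, the summed level followed the GC tilt closely. The 8 libraries with a tilt below 0 (-1.06 to -0.11) were the 8 with the lowest sums, 151.8 to 363 CPM, and the 9 with a tilt above 0 (0.10 to 1.10) were the 9 with the highest sums, 427 to 964 CPM. Rank by tilt and rank by histone level differed by at most 2 places in the 17 libraries. The small RNA genes Rn7sk, Rn7s1 and Rn7s2, other transcripts without a poly-A tail, took 2.65% to 6.49% of counts in the first set and 7.33% to 13.1% in the second. All 3 measures share the same libraries and their preparation. Histone genes are GC-rich: the coding part of the 67 genes held 55.6% to 70.3% GC (median 65.7%), against a median of 52.8% in 11853 other tested protein-coding genes. The part of the GC trend and of the small RNA share in the genotype and stimulation differences below was not tested. Counts of called histone genes are therefore given also after a correction that removed the GC trend from every library, with GC content of the whole transcript, and again with GC content of the coding part, which was added after seeing the data. Counts of other gene lists are given after the first correction.

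**Figure D2:**
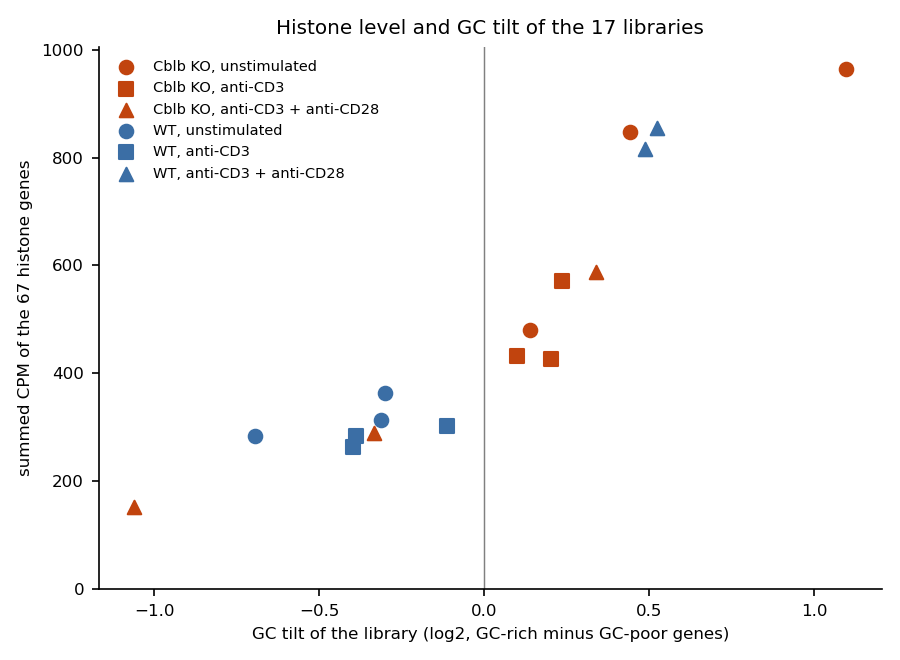
GC tilt of each of the 17 libraries (horizontal axis, log2) against the summed level of the 67 histone genes (vertical axis, CPM), by genotype and stimulation. Libraries with a tilt below 0 have 151.8 to 363 CPM and those above 0 have 427 to 964 CPM. All KO unstimulated, KO anti-CD3 and WT both-antibody libraries lie above 0. All WT unstimulated and WT anti-CD3 libraries lie below 0, and the KO both-antibody libraries lie on both sides.

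H1 genes made up the largest share of histone counts, 42.6% to 59.2% of the summed CPM per library, H4 10.9% to 24.3%, H2B 13.4% to 22.9%, H2A 7.43% to 14.7% and H3 2.66% to 6.52%. Hist1h1c alone took 24.2% to 37.6%. Per kilobase of exon it was also the most abundant of the 67 genes, at a mean of 102 CPM per kb over the libraries, followed by the H2B gene Hist2h2bb at 45.8, the H4 gene Hist1h4n at 37.4 and the H1 gene Hist1h1e at 26.0. Of the 67 genes, 55 had counts enough to be tested (5 of H1, 10 of H2A, 17 of H2B, 10 of H3 and 13 of H4). The 12 that were not tested averaged 0 to 0.289 CPM, and Hist1h2aa, Hist1h2ah, Hist1h2ba and Hist2h3b had no count in any library. Hist1h2ba and Hist1h1t are known as testis histone genes; Hist1h1t, also not tested, reached at most 0.225 CPM, in KO unstimulated replicate 1.

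Many of these genes are near copies of each other, which matters for how counts were split. In 25 genes at least 50% of the 100-base windows of the transcript occurred word for word in another annotated gene, and only 7 genes had no such window; 24 genes overlapped an exon of another gene, 7 of them on the same strand. Whether counting used the strand is not given in the sources used here. Values of single genes with many shared windows are therefore uncertain. The pair Hist1h4n and Hist1h4m, picked out after its values were seen, is an example: in WT cells with both antibodies replicate 2 had 48.9 and 0 CPM, replicate 3 had 24.4 and 22.4 CPM, and the sums were 48.9 and 46.8 CPM. The genes under 50% shared windows carried most of the signal and had the same order of groups, with means of 681 CPM in unstimulated KO cells, against 304 CPM in unstimulated WT cells, 426 CPM in KO, against 268 CPM in WT cells with anti-CD3, and 309.5 CPM in KO, against 724 CPM in WT cells with both antibodies. Summed over the 46 genes with a found stem-loop, the level averaged 675 CPM in KO libraries, against 275 CPM in WT libraries at rest, and summed over those without it 88.7 CPM in KO libraries, against 45.1 CPM in WT libraries.

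In unstimulated cells, genes of all 5 types were higher in KO than in WT cells. By edgeR's quasi-likelihood test with Benjamini-Hochberg adjustment over 16246 genes and a threshold of 0.05, 34 of the 55 tested genes were higher in KO cells and 0 were lower, where 15.3% of all tested genes were higher and 10.1% lower. At an unadjusted p under 0.05, 41 were higher and 0 lower, where 22.0% of all tested genes were higher. DESeq2 called 37 higher and 0 lower of the 49 it gave an adjusted p, where 18.5% of all genes with one were higher. The 34 were 5 of 5 H1 genes, 2 of 10 H2A, 11 of 17 H2B, 8 of 10 H3 and 8 of 13 H4 genes. With Hist2h2aa1, which had no count in WT cells, set to a floor of 3 counts over the group, the median log2 fold change of the 55 was 1.88, against -0.01 over all genes tested; by type it was 1.04 for H1, 1.16 for H2A, 1.90 for H2B, 2.28 for H3 and 2.08 for H4. Summed by type, H3 averaged 47.5 ± 20.0 CPM in KO libraries, against 11.1 ± 0.365 CPM in WT libraries (SD, n = 3 each), H4 142 ± 67.0 CPM in KO, against 46.4 ± 5.53 CPM in WT libraries, and H2A 65.5 ± 15.8 CPM in KO, against 41.9 ± 0.625 CPM in WT libraries.

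The counts behind this comparison depended on GC and on single libraries. No share of all tested genes is given for fits with a library left out. Those shifts cannot be read as particular to histone genes. After the GC correction 6 of the 34 genes passed, where 2.43% of all tested genes were called higher, and after the correction on the coding part 14 of the 34 passed, where 5.77% were. The correction on the coding part also called 2 genes lower in KO cells, Hist3h2a and Hist2h2be, where 5% of all tested genes were lower; that on the whole transcript called 0 lower, where 2.89% were. The 6 passed both: Hist1h1d, Hist1h2bc, Hist1h2bm, Hist1h2bj, Hist1h3f and Hist1h3a. The GC tilt was 0.44, 1.10 and 0.14 in the KO libraries and -0.70, -0.31 and -0.30 in the WT libraries. Without KO unstimulated replicate 2, the library with the largest tilt, 2 genes were called, and without WT unstimulated replicate 1, the one with the lowest tilt of its group, 4; without KO replicate 1 there were 18, without WT replicate 2 there were 19, without WT replicate 3 there were 21, and without KO replicate 3 there were 42.

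The H1 genes encode the linker histones and were the most abundant. Hist1h1c (ENSMUSG00000036181, chr13:23738808-23740367, plus strand), which encodes H1.2, had 285, 329.6 and 155 CPM in unstimulated KO libraries, against 72.3, 90.9 and 126 CPM in unstimulated WT libraries. The groups did not overlap, and in 21.9% of all tested genes all KO libraries were likewise above all WT libraries. The log2 fold change was 1.42 ± 0.428 (SE, edgeR adjusted p = 0.0317). That call was lost without KO replicate 1 or 2 or WT replicate 1 or 2, and after either GC correction. Hist1h1d, which encodes H1.3, had 36.2, 38.9 and 21.1 CPM in KO, against 10.4, 10.6 and 13.1 CPM in WT libraries. Every KO library was above every WT library; the log2 fold change was 1.51 ± 0.285 (edgeR adjusted p = 0.00684), and it passed in every alternative and with each library left out. Hist1h1a, which encodes H1.1 and shares no window with another gene, had 13.0, 16.3 and 13.1 CPM in KO libraries, against 7.71, 8.10 and 8.03 CPM in WT libraries. Its log2 fold change was 0.84 ± 0.186 (edgeR adjusted p = 0.00877), and the call was lost without KO replicate 2 and after the GC correction on the whole transcript.

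Among the core histone genes, Hist1h2bj (ENSMUSG00000069300, chr13:22043214-22043676, plus strand), an H2B gene of moderate level, gave a difference with little spread among KO libraries. It had 3.14, 3.06 and 3.04 CPM in KO, against 0.259, 0.608 and 0.566 CPM in WT unstimulated libraries, a log2 fold change of 2.72 ± 0.405 (edgeR adjusted p = 0.00265). The KO values were close together and far above the WT values, which rest on 8, 16 and 10 counts. The call held in every alternative, although 40.1% of the windows of this gene are shared with other H2B genes. Hist1h3f, an H3 gene, had 19.4, 21.7 and 8.80 CPM in KO, against 3.31, 3.54 and 4.75 CPM in WT libraries, a log2 fold change of 2.14 ± 0.485 (edgeR adjusted p = 0.0109), lost without KO replicate 2 or WT replicate 1. KO replicate 3 was the lowest KO library for Hist1h3f and for Hist1h4h, an H4 gene with 21.8, 23.7 and 6.99 CPM in KO, against 1.04, 3.16 and 3.34 CPM in WT libraries. Hist1h4h had a log2 fold change of 2.87 ± 0.84 (edgeR adjusted p = 0.0289), lost after either GC correction and without KO replicate 1 or 2 or any WT unstimulated library.

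Some histone genes did not follow this pattern. Hist3h2a (ENSMUSG00000078851, chr11:58954685-58956830, plus strand), an H2A gene outside the large cluster, had 32.0, 34.5 and 30.5 CPM in KO, against 32.2, 30.9 and 28.8 CPM in WT unstimulated libraries, and the groups overlapped (log2 fold change 0.08 ± 0.122, edgeR adjusted p = 0.656). Hist2h2be (ENSMUSG00000068854, chr3:96221119-96223738, plus strand), an H2B gene in which no stem-loop was found and AATAAA follows the stop codon, had 10.3, 8.02 and 7.24 CPM in KO, against 9.43, 8.17 and 10.2 CPM in WT libraries. This was the lowest log2 fold change of the 55, -0.12 ± 0.15 (edgeR adjusted p = 0.579). Hist1h2ac, an H2A gene with both a stem-loop and AATAAA, had 4.27, 4.65 and 5.63 CPM in KO and 4.34, 3.99 and 4.58 CPM in WT libraries, which also overlapped (log2 fold change 0.17 ± 0.237, edgeR adjusted p = 0.631). The transcripts of these 3 genes run far past the stem-loop or stop codon in the annotation, and their whole-transcript GC content was 45.9%, 45.3% and 45.9%. The trait was not particular to them. Hist1h1d (39.8% GC, 4931 annotated bases after the stop codon) and Hist1h2bc (45.9%, 742 bases) were called higher in KO cells.

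**Figure D3:**
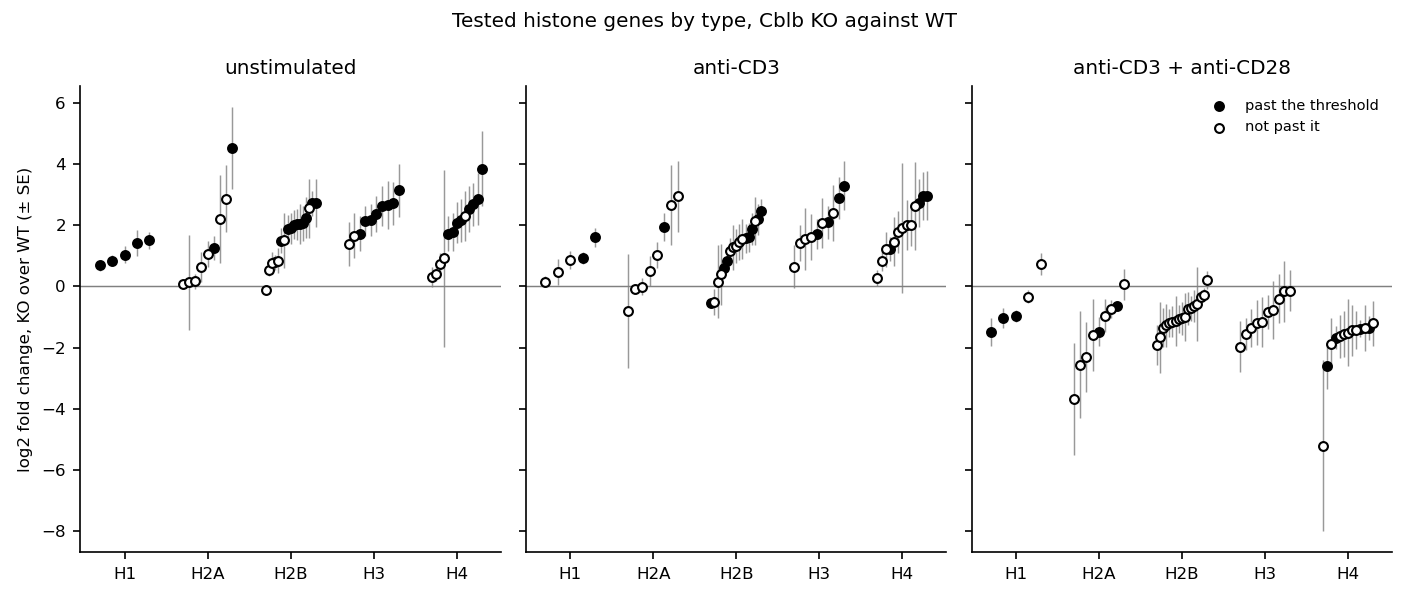
Log2 fold change of KO over WT cells with its standard error (edgeR) for each tested histone gene, by type, in unstimulated cells, with anti-CD3 and with both antibodies; filled points passed an adjusted p of 0.05, and genes with no count in a whole group are not drawn. Most points lie above 0 in the first 2 states and below 0 with both antibodies.

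With anti-CD3 alone, histone genes were again higher in KO cells. By edgeR's quasi-likelihood test, 18 of 55 genes were higher and 1 lower, where 10.5% of all tested genes were higher and 4.80% lower. The 18 were 2 of 5 H1, 1 of 10 H2A, 7 of 17 H2B, 4 of 10 H3 and 4 of 13 H4 genes. With the 2 genes absent from a whole group at their floor, the median log2 fold change was 1.55, against 0.04 over all genes. Of the 18, 15 passed both GC corrections, as did the lower gene, where 13.2% of all tested genes were higher after the correction on the whole transcript and 12.9% after that on the coding part. In all, the first correction called 15 genes higher and 1 lower, and the second 19 higher and 2 lower. The GC tilt was 0.20, 0.10 and 0.24 in KO and -0.11, -0.40 and -0.39 in WT libraries. Of the 18 genes, 15 were also higher in unstimulated KO cells, which is 83.3% of the 18 and 44.1% of the 34. The 2 comparisons share no library but share the estimate of the spread. The overlap over all tested genes is not given, so this overlap cannot be read as particular to histone genes. The count was 3 without KO anti-CD3 replicate 3, the KO library with the highest histone level here, 12, 5 and 7 without WT anti-CD3 replicates 1, 2 and 3, and 29 without KO replicate 3 of the cells given both antibodies, which enters through the shared spread. Without the shares of all tested genes in these fits, the shifts cannot be read as particular to histone genes.

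Hist1h2bj again stood out. It had 3.25, 2.59 and 5.13 CPM in KO, against 0.853, 0.543 and 0.665 CPM in WT cells with anti-CD3, a log2 fold change of 2.47 ± 0.381 (edgeR adjusted p = 0.000507). The WT values rest on 15, 21 and 19 counts. Hist1h1b, which encodes H1.5, had 3.20, 2.93 and 5.37 CPM in KO, against 1.48, 1.11 and 1.29 CPM in WT libraries (log2 fold change 1.61 ± 0.306, edgeR adjusted p = 0.00221). Hist1h1a had 7.41, 8.95 and 8.82 CPM in KO, against 4.72, 3.57 and 5.07 CPM in WT libraries (log2 fold change 0.92 ± 0.193, edgeR adjusted p = 0.00415). In all 3 genes every KO library exceeded every WT library, as in 27.4% of all tested genes. These were the only calls that held in every alternative and with each library left out. Hist1h3b, an H3 gene, had 1.31, 1.69 and 3.29 CPM in KO, against 0.171, 0.129 and 0.560 CPM in WT libraries, a log2 fold change of 2.89 ± 0.683 (edgeR adjusted p = 0.0103) that was lost without KO replicate 3 or WT replicate 2. Hist4h4, the H4 gene on chromosome 6, had 7.12, 6.87 and 10.3 CPM in KO, against 3.76, 3.20 and 3.53 CPM in WT libraries. Its log2 fold change was 1.23 ± 0.382 (edgeR adjusted p = 0.0411), close to the threshold, and was lost when any 1 of 12 of the 17 libraries was left out, all 6 anti-CD3 libraries among them, and after the correction on the whole transcript.

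The abundant Hist1h1c did not pass with anti-CD3 alone: it had 140.2, 138 and 159 CPM in KO, against 111, 97.9 and 106 CPM in WT libraries, which did not overlap (log2 fold change 0.47 ± 0.42, edgeR adjusted p = 0.499). The single lower gene was Hist2h2be, with 9.30, 9.57 and 8.34 CPM in KO, against 11.3, 14.5 and 13.5 CPM in WT libraries. All 3 KO libraries were below all 3 WT libraries, as in 17.6% of all tested genes. The log2 fold change was -0.54 ± 0.148 (edgeR adjusted p = 0.021), and the call was lost without KO replicate 3 or WT replicate 2 or 3. It was kept after both GC corrections.

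With both antibodies the direction was the opposite: histone genes were lower in KO than in WT cells. By edgeR's quasi-likelihood test, 0 of 55 genes were higher and 9 lower, where 9.84% of all tested genes were higher and 6.30% lower; at an unadjusted p under 0.05, 0 were higher and 21 lower, where 15.5% of all tested genes were lower. DESeq2 called 0 higher and 9 lower of the 37 it gave an adjusted p, where 12.7% of all genes with one were lower. The 9 called by edgeR were Hist1h1c, Hist1h1d and Hist1h1e of H1, Hist2h2ac and Hist3h2a of H2A, and Hist2h4, Hist4h4, Hist1h4i and Hist1h4j of H4, and 0 of 17 H2B and 0 of 10 H3 genes were called. The median log2 fold change of the 55 was -1.19 with the gene absent from a whole group at its floor, against 0.00 over all genes. The GC tilt was 0.34, -0.33 and -1.06 in KO libraries, against 0.52 and 0.49 in WT libraries. Both corrections kept 6 of the 9, all but Hist1h1d, Hist3h2a and Hist4h4, where 4.27% of all tested genes were lower after the correction on the whole transcript and 4.46% after that on the coding part. Each correction also called 1 gene higher in KO cells, Hist1h1b, where 13.1% and 11.6% of all tested genes were higher.

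These calls rested on few libraries. Shares of all tested genes are not given for the fits below, so the shifts cannot be read as particular to histone genes. Without WT both-antibody replicate 2 or replicate 3, which leaves a single WT library assumed to vary like the other groups, 0 genes were called; without KO replicate 2 or 3 there were 4, and without KO replicate 1, the KO library nearest to WT, there were 36. A fit to the 5 libraries of this comparison alone called 0. Hist2h4, an H4 gene on chromosome 3 with no shared window, had 10.8, 6.07 and 4.10 CPM in KO, against 18.7 and 17.8 CPM in WT libraries, a log2 fold change of -1.39 ± 0.279 (edgeR adjusted p = 0.00634). Hist1h1e, which encodes H1.4, had 47.3, 36.8 and 27.1 CPM in KO, against 75.4 and 70.7 CPM in WT libraries (log2 fold change -0.98 ± 0.201, edgeR adjusted p = 0.0071). For both genes every KO library was below both WT libraries, as in 24.4% of all tested genes. Hist1h1c had 174, 97.7 and 36.7 CPM in KO, against 291 and 286 CPM in WT libraries; its adjusted p of 0.0477 (edgeR, log2 fold change -1.49 ± 0.465) lay at the threshold and was lost when any 1 of 14 libraries was left out. Hist1h2bj, far higher in KO cells in the other 2 states, had 2.72, 0.994 and 0.938 CPM in KO, against 2.60 and 2.5 CPM in WT libraries, which overlapped (log2 fold change -0.71 ± 0.406, edgeR adjusted p = 0.229).

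The 3 KO libraries given both antibodies differed among themselves in the order of their GC tilt. In 45 of the 55 tested genes (81.8%) replicate 1 was highest and replicate 3 lowest, an order seen in 30.5% of all 16246 tested genes. Over the 46 genes with a count in replicate 3, the median ratio of replicate 1 to replicate 3 was 4.82, and 9 genes had no count in replicate 3. Genes of like base composition moved less: with 60% to 65% GC in the coding part, the median ratio was 4.82 over 22 histone genes, against 1.71 over 1052 other genes, and at 65% or more it was 7.11 over 20 histone genes, against 1.22 over 211 other genes. At 55% to 60% GC it was 1.68 over 4 histone genes, against 1.47 over other genes.

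The same view was taken of the genotype differences. Among genes of 60% to 65% coding GC, the median log2 fold change of KO over WT cells was 1.73 over 25 histone genes and 0.60 over 1066 other genes without stimulation, 1.23 and 0.36 with anti-CD3, and -1.14 and -0.50 with both antibodies. At 65% or more it was 2.19 over 26 histone genes and 0.28 over 217 other genes without stimulation, 2.01 and 0.25 with anti-CD3, and -1.46 and -0.26 with both antibodies. At 55% to 60% it was 0.68 over 4 histone genes and 0.43 over 3130 other genes without stimulation. With anti-CD3 these medians were 0.77 and 0.23, and with both antibodies -0.30 and -0.31. Genes under 45% GC, 1557 in number, had medians of -0.33, -0.10 and 0.34 in the 3 states, opposite in sign to those of GC-rich genes. The histone genes thus had the same sign as other GC-rich genes in each state. Their medians were farther from 0, except at 55% to 60% with both antibodies, where they were alike. The difference between these sets was not tested.

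**Figure D4:**
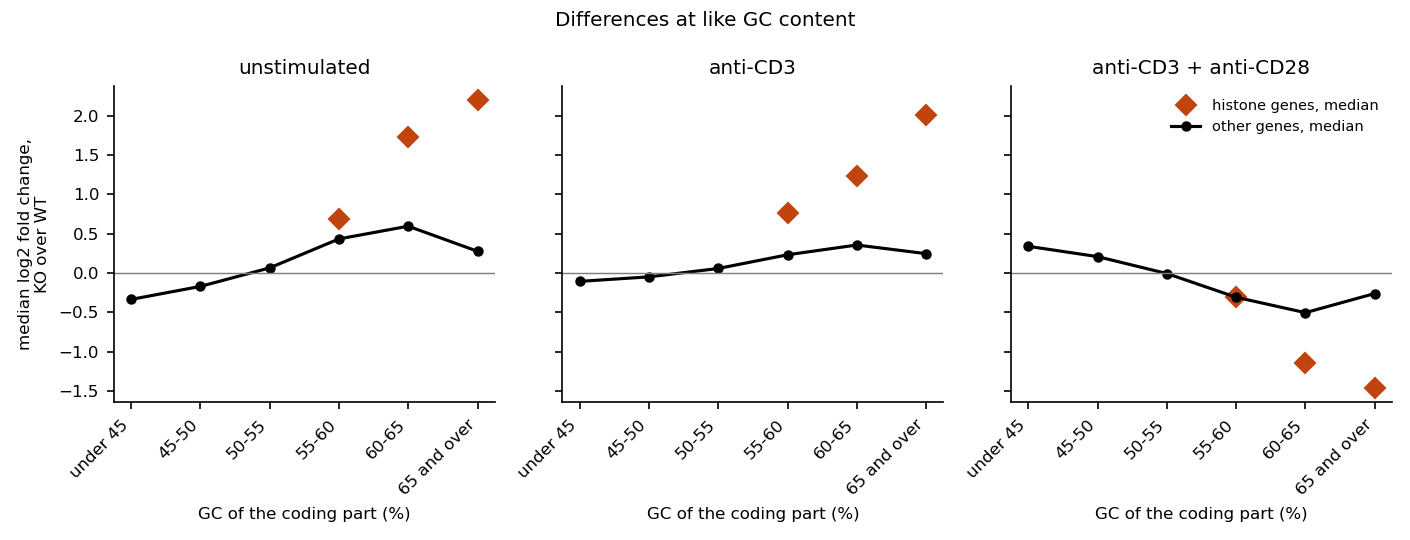
Median log2 fold change of KO over WT cells by GC content of the coding part (horizontal axis, percent), for histone genes and for other genes, in the 3 stimulation states. At 65% or more the histone medians are 2.19, 2.01 and -1.46, and those of other genes 0.28, 0.25 and -0.26.

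Stimulation was followed within each genotype. With anti-CD3, KO cells had 10 of 55 genes lower and 0 higher than unstimulated KO cells by edgeR's quasi-likelihood test (17.3% of all tested genes were lower and 19.6% higher), and at an unadjusted p under 0.05 there were 16 lower and 0 higher, where 21.6% of all tested genes were lower. DESeq2 called 12 lower and 0 higher of the 54 it gave an adjusted p, where 19.2% of all genes with one were lower. WT cells had 9 lower and 1 higher (13.1% of all tested genes lower and 11.3% higher). Both shares of lower genes, 10 and 9 of 55, were near those of all genes. Both GC corrections kept all 10 lower genes in KO cells, and 8 of the 9 lower genes and the higher one in WT cells. In all, the corrections called 11 and 10 genes lower in KO cells, where 20.9% and 20.1% of all tested genes were lower, and 10 and 10 in WT cells, where 18.7% and 16.7% were. In KO cells the count was 4, 4 and 5 without anti-CD3 replicate 1, anti-CD3 replicate 2 and unstimulated replicate 2, and 16 without KO unstimulated replicate 3 or KO both-antibody replicate 1. In WT cells the calls in both directions came to 5, 6 and 6 without anti-CD3 replicate 2, anti-CD3 replicate 3 and unstimulated replicate 2. Such shifts are given without shares of all tested genes and cannot be read as particular to histone genes.

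The genes lowered by anti-CD3 included Hist3h2a and Hist1h2ac, which did not pass for genotype at rest. Hist3h2a had 13.5, 14.0 and 15.6 CPM in KO cells with anti-CD3, against 32.0, 34.5 and 30.5 CPM in unstimulated KO cells (log2 fold change -1.17 ± 0.126, edgeR adjusted p = 1.57e-06). In WT cells it had 15.0, 14.4 and 16.8 CPM with anti-CD3, against 32.2, 30.9 and 28.8 CPM without (log2 fold change -0.99 ± 0.125, edgeR adjusted p = 1.48e-05). Hist3h2a fell to a similar level in both genotypes, with no overlap between stimulated and unstimulated libraries. Of all tested genes, 23.4% in KO and 23.1% in WT cells were lower without overlap. Hist1h2ac had 1.36, 1.35 and 1.79 CPM with anti-CD3 in KO cells, against 4.27, 4.65 and 5.63 CPM without (log2 fold change -1.66 ± 0.255, edgeR adjusted p = 7.26e-05). In WT cells it had 1.48, 1.65 and 1.43 CPM with anti-CD3, against 4.34, 3.99 and 4.58 CPM without (log2 fold change -1.49 ± 0.254, edgeR adjusted p = 0.00032). Hist1h1a fell by 0.76 ± 0.185 in KO cells (edgeR adjusted p = 0.00379) and by 0.84 ± 0.193 in WT cells (edgeR adjusted p = 0.00373) on the log2 scale.

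These 3 genes held in both genotypes in every alternative and with each library left out, as did Hist3h2ba, an H2B gene beside Hist3h2a on chromosome 11, in KO cells (log2 fold change -2.04 ± 0.406, edgeR adjusted p = 0.000769) and the H2B gene Hist1h2bh in WT cells (-2.40 ± 0.503, edgeR adjusted p = 0.00201). Of Hist3h2a's windows, 29.8% are shared with Trim17, whose annotated exons overlap it on the same strand. The gene higher in WT cells was Hist2h2be, with 11.3, 14.5 and 13.5 CPM after anti-CD3, against 9.43, 8.17 and 10.2 CPM without (log2 fold change 0.51 ± 0.148, edgeR adjusted p = 0.0182), a call lost without WT anti-CD3 replicate 2 or 3 or WT unstimulated replicate 2.

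With both antibodies the genotypes moved in opposite directions. In KO cells 27 of 55 genes were lower and 0 higher than in unstimulated KO cells (edgeR, 22.5% of all tested genes lower and 23.0% higher), with 33 lower and 0 higher at an unadjusted p under 0.05, where 26.0% of all tested genes were lower. In WT cells 26 were higher and 1, Hist3h2a, lower than in unstimulated WT cells (17.8% of all tested genes higher and 16.3% lower). The median log2 fold change was -1.35 in KO cells, against 0.01 over all genes, and 1.66 in WT cells, against -0.01 over all genes, with genes absent from a whole group at their floor. The H4 genes took the largest share of the WT calls, 10 of 13 higher, beside 3 of 5 H1, 3 of 10 H2A, 6 of 17 H2B and 4 of 10 H3 genes. In KO cells the lower genes were 5 of 5 H1, 3 of 10 H2A, 9 of 17 H2B, 5 of 10 H3 and 5 of 13 H4 genes. Both GC corrections kept 18 of the 27 lower genes in KO cells, and 14 of the 26 higher genes and the lower one in WT cells. After these corrections 21.2% and 22.0% of all tested genes were lower in KO cells, and 12.5% and 14.3% higher in WT cells. In WT cells the split of all calls moved with the corrections, to 18 higher and 5 lower with GC content of the whole transcript and 16 higher and 6 lower with that of the coding part, where 21.0% and 18.7% of all tested genes were lower. The lower genes common to both were Hist3h2a, Hist1h1a, Hist1h1b and Hist1h2bb.

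Single libraries weighed on these counts. As shares of all tested genes are not given for these fits, the shifts cannot be read as particular to histone genes. For KO cells the count was 14 without unstimulated replicate 2, 17 without both-antibody replicate 2 or 3, and 46 without both-antibody replicate 1. For WT cells the calls in both directions came to 7 and 10 without both-antibody replicates 2 and 3, and 11 and 14 without unstimulated replicates 1 and 2. In WT cells 7 of the 27 calls held in every alternative, and in KO cells 7 of 27 did.

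In WT cells, Hist1h4h had 32.6 and 31.4 CPM with both antibodies, against 1.04, 3.16 and 3.34 CPM without stimulation (log2 fold change 3.71 ± 0.896, edgeR adjusted p = 0.00805). Hist1h3f had 17.7 and 17.4 CPM with both antibodies, against 3.31, 3.54 and 4.75 CPM without (2.20 ± 0.523, edgeR adjusted p = 0.00584). Hist1h2bj had 2.60 and 2.5 CPM with both antibodies, against 0.259, 0.608 and 0.566 CPM without (2.45 ± 0.444, edgeR adjusted p = 0.000593). Both stimulated WT libraries were above all 3 unstimulated ones for these genes, as in 33.2% of all tested genes. The calls held in every alternative. Hist3h2a went the other way in WT cells, at 20.7 and 22.4 CPM with both antibodies, against 32.2, 30.9 and 28.8 CPM without (-0.51 ± 0.14, edgeR adjusted p = 0.0103), a call lost without WT both-antibody replicate 2.

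In KO cells, Hist1h1a had 7.05, 5.76 and 3.87 CPM with both antibodies, against 13.0, 16.3 and 13.1 CPM without stimulation (log2 fold change -1.35 ± 0.192, edgeR adjusted p = 3.22e-05). Hist1h1d had 18.7, 10.8 and 7.15 CPM with both antibodies, against 36.2, 38.9 and 21.1 CPM without (-1.40 ± 0.286, edgeR adjusted p = 0.00108). Hist3h2a had 17.1, 13.1 and 11.5 CPM with both antibodies, against 32.0, 34.5 and 30.5 CPM without (-1.22 ± 0.127, edgeR adjusted p = 1.26e-06). All stimulated KO libraries lay below all unstimulated ones for these genes, as in 22.0% of all tested genes. The calls held in every alternative.

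**Figure D5:**
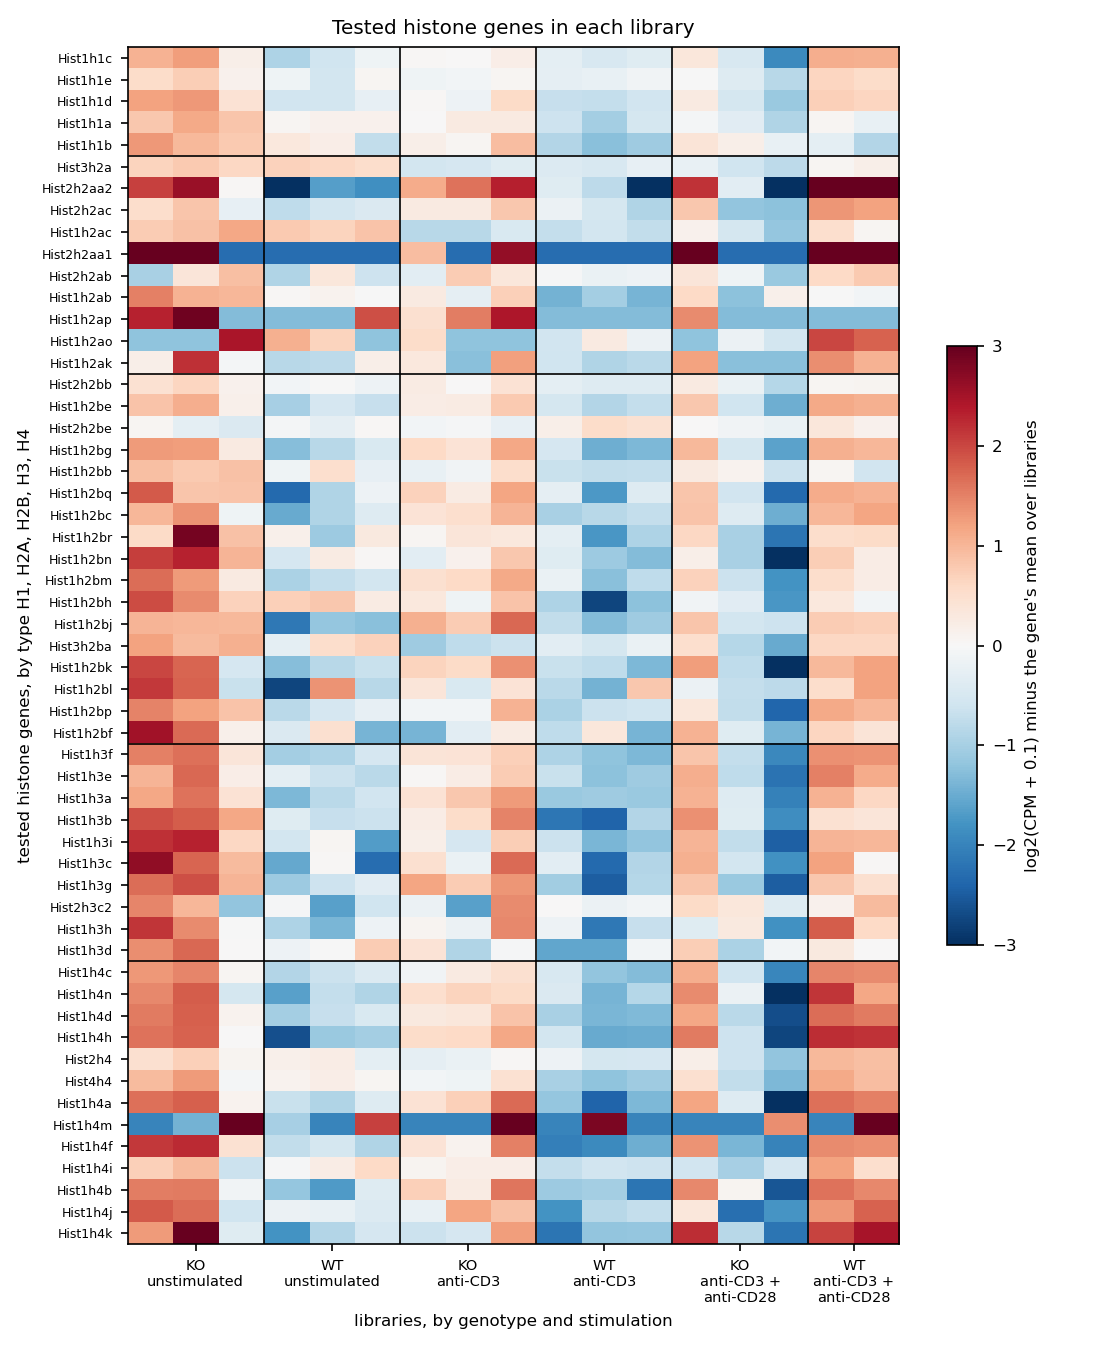
Level of each tested histone gene in each library, as log2(CPM + 0.1) minus the gene's mean over the 17 libraries, with genes ordered by type and libraries by group, KO left of WT in each state. KO replicate 3 with both antibodies, at 152 CPM in sum, is the lowest column, and the 2 WT libraries with both antibodies, at 855 and 815 CPM, are among the highest.

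The difference between the genotypes in these responses was tested directly, as the response of KO cells minus that of WT cells. For both antibodies against no stimulation, 40 of 55 genes had a lower value and 0 a higher one by edgeR's quasi-likelihood test (19.2% of all tested genes lower and 18.3% higher), with 45 lower and 0 higher at an unadjusted p under 0.05, where 23.3% of all tested genes were lower. Both GC corrections kept 20 of the 40 (4.09% and 8.31% of all tested genes were lower), which were also the calls that held in every alternative, and 30 of the 40 held with each library left out. For Hist1h1c the response to both antibodies was -1.32 ± 0.428 in KO cells (edgeR adjusted p = 0.0241), against 1.59 ± 0.465 in WT cells (edgeR adjusted p = 0.0203), a difference of -2.91 ± 0.632 on the log2 scale (edgeR adjusted p = 0.00534). Hist1h2bj had a difference of -3.44 ± 0.573 (edgeR adjusted p = 0.00339) and Hist1h3f one of -3.69 ± 0.706 (edgeR adjusted p = 0.00382). For anti-CD3 against no stimulation, edgeR called 0 of 55 in either direction (0.0492% of all tested genes higher and 0.00616% lower), with 0 higher and 2 lower at an unadjusted p under 0.05, where 5.10% of all tested genes were lower. DESeq2 called 0 of the 35 it gave an adjusted p, where 0.807% of all genes with one were lower, limma with voom weights called 1 lower, where 1.43% were, and either GC correction called 0.

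Adding anti-CD28 to anti-CD3 gave no call by the main test. In WT cells edgeR called 0 of 55 genes in either direction (0.00% of all tested genes), with a smallest adjusted p among the histone genes of 0.135, but 42 were higher and 0 lower at an unadjusted p under 0.05, where 13.1% of all tested genes were higher and 8.45% lower. DESeq2 called 26 higher of the 41 it gave an adjusted p, where 2.97% of all genes with one were higher, and limma with voom weights called 46 higher, where 19.8% of all tested genes were. Either GC correction called 0. The median log2 fold change was 1.96 over the 54 genes with a count in one of these groups. With KO both-antibody replicate 1 left out 31 genes were called higher, where 5.62% of all tested genes were, and with replicate 3 left out 34, where 6.87% were; these KO libraries enter through the shared spread. In KO cells edgeR called 0 (0.00% of all tested genes), with a smallest adjusted p of 0.547 and 0 higher and 8 lower at an unadjusted p under 0.05, where 6.32% of all tested genes were lower. DESeq2 called 0 (0.00% of all genes), as did edgeR after either GC correction. Limma with voom weights called 34 lower, where 20.1% of all tested genes were, and without KO both-antibody replicate 1 edgeR called 14 lower, where 3.6% were. The median log2 fold change in KO cells was -0.59. In WT cells the summed level of H4 genes was 202 ± 7.45 CPM with both antibodies (SD, n = 2), against 35.2 ± 6.95 CPM with anti-CD3 alone (SD, n = 3), and that of H1 genes was 396 ± 9.62 CPM with both antibodies, against 163 ± 8.28 CPM with anti-CD3 alone.

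Genes that act with histone synthesis did not share the pattern of the histone genes across the states. Of 25 genes of S phase and DNA replication, 9 were higher and 0 lower in KO than in WT cells without stimulation, 17 and 0 with anti-CD3, and 15 and 1 with both antibodies (edgeR; medians 0.26, 0.65 and 0.61 on the log2 scale). Of all tested genes, 15.3% were higher and 10.1% lower without stimulation, 10.5% and 4.80% with anti-CD3, and 9.84% and 6.30% with both antibodies. After the GC correction the list gave 1 and 0, 20 and 0, and 18 and 0. Of all tested genes, 2.43%, 13.2% and 13.1% were then higher in the 3 states. Lower were 2.89% without stimulation and 4.27% with both antibodies. Their summed level had a mean of 912 CPM in KO libraries, against 795 CPM in WT libraries without stimulation, 1377 CPM in KO, against 882 CPM in WT libraries with anti-CD3, and 1207 CPM in KO, against 805 CPM in WT libraries with both antibodies. With both antibodies, the state in which histone genes were lower in KO cells, these genes were thus mostly higher in KO cells. Mcm5, a subunit of the replicative helicase, had 111, 102 and 144 CPM in KO, against 64.2, 57.6 and 56.4 CPM in WT cells with anti-CD3 (log2 fold change 1.00 ± 0.11, edgeR adjusted p = 4.21e-05). Cdc6, which loads that helicase at origins, had 4.38, 4.76 and 6.74 CPM in KO, against 1.87 and 1.71 CPM in WT cells with both antibodies (1.56 ± 0.289, edgeR adjusted p = 0.00425), a call lost without either WT library. The exception, Cdt1, was lower by -0.45 ± 0.141 with both antibodies (edgeR adjusted p = 0.0402), and the GC correction turned its sign, to 0.24.

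Of 28 measured genes for making and degrading histone mRNA, 6 were higher and 3 lower in KO than in WT cells without stimulation, 8 and 0 with anti-CD3, and 9 and 0 with both antibodies (edgeR). The shares of all tested genes were 15.3% and 10.1%, 10.5% and 4.80%, and 9.84% and 6.30%. After the GC correction the list gave 1 and 1, 13 and 0, and 10 and 0. Of all tested genes, 2.43%, 13.2% and 13.1% were then higher. Slbp had 67.8, 82.6 and 107 CPM in KO, against 60.1 and 59.7 CPM in WT cells with both antibodies (log2 fold change 0.52 ± 0.149, edgeR adjusted p = 0.0286), lost without KO replicate 2 or 3 or either WT library. KO replicate 3, the library with the highest Slbp of the 5, had the lowest summed histone level of all 17. With anti-CD3 the difference in Slbp was 0.14 ± 0.131 (edgeR adjusted p = 0.505), and Npat, the activator of histone transcription at S phase entry, had -0.10 ± 0.108 with anti-CD3 (edgeR adjusted p = 0.564; 0.06 after the GC correction) and 0.26 ± 0.122 with both antibodies (edgeR adjusted p = 0.141). E2f1, a transcription factor for S phase genes on this list, had 3.34, 3.04 and 3.95 CPM in KO, against 1.19, 1.34 and 0.944 CPM in WT cells with anti-CD3 (1.57 ± 0.301, edgeR adjusted p = 0.00227).

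Histone genes outside the clusters were counted as a further list. Of its 9 tested genes, 1 was higher and 1 lower in KO than in WT cells without stimulation. With anti-CD3 these were 3 and 1, and with both antibodies 0 and 0. The shares of all tested genes were 15.3% and 10.1%, 10.5% and 4.80%, and 9.84% and 6.30%. After the GC correction the list gave 0 and 1, 1 and 1, and 1 and 0. Of all tested genes, 2.43%, 13.2% and 13.1% were then higher. H2afx, which encodes the H2A variant H2A.X, had 10.2, 10.3 and 13.2 CPM in KO, against 8.14, 5.30 and 6.65 CPM in WT cells with anti-CD3 (log2 fold change 0.77 ± 0.17, edgeR adjusted p = 0.00612), lost without KO anti-CD3 replicate 3 and after the GC correction. H2afz and H3f3b, which encode H2A.Z and H3.3, did not pass with anti-CD3 (0.20 ± 0.144 and 0.15 ± 0.126, edgeR adjusted p = 0.379 and 0.474) or with both antibodies (0.45 ± 0.163 and 0.10 ± 0.142, edgeR adjusted p = 0.0654 and 0.648). Of 22 histone chaperone genes, 5 were higher and 1 lower in KO cells without stimulation, 8 and 0 with anti-CD3, and 9 and 3 with both antibodies. After the GC correction these were 0 and 0, 12 and 0, and 12 and 1. No chaperone gene was then called without stimulation, and more were called with anti-CD3. The shares of all tested genes are those given for the histone genes outside the clusters.

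Other RNAs without a poly-A tail were counted for comparison with the histone mRNAs. Of 15 tested, 5 were higher and 2 lower in unstimulated KO than WT cells, 0 and 0 with anti-CD3, and 0 and 0 with both antibodies (edgeR), and their median log2 fold changes were 0.48, 0.24 and -0.60. The shares of all tested genes were 15.3% and 10.1%, 10.5% and 4.80%, and 9.84% and 6.30%. After the GC correction the list gave 0 and 1, 0 and 1, and 1 and 0. Of all tested genes, 2.43%, 13.2% and 13.1% were then higher. Their medians had the same sign as those of the histone genes in the 3 states, 1.88, 1.55 and -1.19. Whether the share of RNA without poly-A differed between the libraries for reasons of preparation was not tested.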

How the data were processed

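Libraries of CD8+ T cell RNA were built with a stranded kit for total RNA that removes ribosomal RNA, and were read in pairs of 100 bp, per the labels' protocols. Read counts in whole numbers were deposited by the authors for each library, 17 in all, with 1 value per Ensembl gene. STAR 2.5.2 and RSEM 1.3.0 are named with the build GRCm38 (mm10), per the submitters' processing notes. Neither the annotation release nor the strand setting nor any rounding is given in the sources used here. The deposited table that repeats these libraries side by side was left out. Symbols, positions, sequences and GC content were read from GENCODE release M21 on GRCm38, in which 53650 of 53679 identifiers were found, and promoters from RefSeq (GRCm38.p6).

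Genes passing edgeR's expression filter (16246) were tested with edgeR 4.0.16 in R 4.3.3 (TMM scaling, robust quasi-likelihood fit, 1 coefficient for each of 6 groups, Benjamini-Hochberg over all genes; common biological coefficient of variation 0.153). All 17 libraries shared the estimate of the spread. CPM divided counts by each library's total scaled by its TMM factor. An effect of depth beyond counting error was not tested. KO unstimulated replicate 2 was both the deepest library and the one with the largest GC tilt. The GC correction subtracted, in each library, a loess curve (span 0.3) of log2 deviation against GC, fitted on genes with a mean log2 CPM from 1 upwards. Alternatives were DESeq2 1.42.0, limma 3.58.1 with voom and quality weights, other scaling and filters, a replicate block, only the groups compared, each library left out, the 2 libraries of most extreme GC trend left out, and GC corrections; that on the coding part was added after seeing the data. The scripts were tested on simulated data. No replicate pair agreed within sampling noise (chi-square per gene 4.03 to 629). Tables and figures were made with Python 3.11.15, pandas 2.3.3 and matplotlib 3.10.9.

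The histone genes and gene lists were chosen with earlier results of these data known. Named genes were the 3 tested genes of highest CPM per kb in each histone type, up to 6 called genes per direction and comparison with the smallest adjusted p, 7 fixed genes (Hist1h1c, Hist1h2bc, Hist2h2be, Hist1h1t, Hist1h2ba, Hist3h2a, Hist4h4) and, for each comparison list, up to 4 called genes per direction, plus Slbp, Npat, H2afz and H3f3b. List genes were named only for KO against WT cells with anti-CD3 or both antibodies. Counts of 5 or fewer were also named, and Hist1h4m was named after its values were seen.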

Additional observations from a re-analysis of the deposited data

Results flagged for a closer look

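One set of results met a rule for a closer look: the response to both antibodies, relative to unstimulated cells, differed between KO and WT cells when the difference itself was tested with an interaction term (edgeR's quasi-likelihood test). The count was 40 of 55 tested histone genes with a lower response in KO cells, where 19.2% of all tested genes were lower. The genes with the smallest adjusted p had differences, KO minus WT, of -1.67 for Hist1h1e, -2.55 for Hist1h1d, -3.44 for Hist1h2bj, -3.69 for Hist1h3f, -1.80 for Hist2h4 and -3.99 for Hist1h2bp, an H2B gene (log2 scale, adjusted p 0.00339 to 0.00425). In the same libraries the GC tilt averaged above 0 in unstimulated KO and in WT both-antibody cells and below 0 in the other 2 groups, and its part in these differences was not tested. Each of the 6 genes passed after both GC corrections. Hist1h2bp rests on few counts, 6, 7 and 6 in unstimulated WT libraries and 10, 4 and 0 in KO both-antibody libraries.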

How the results depend on the processing

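The counts of called histone genes, in the order unstimulated KO against WT, anti-CD3 KO against WT, both antibodies KO against WT, anti-CD3 in KO, anti-CD3 in WT, both antibodies in KO, both antibodies in WT, anti-CD28 added in KO, anti-CD28 added in WT, and the differences of response to anti-CD3 and to both antibodies, were 34, 19, 9, 10, 10, 27, 27, 0, 0, 0 and 40. With a replicate block they were 27, 18, 9, 8, 9, 26, 27, 0, 0, 0 and 37. Deviations of same-numbered libraries from their group means had r from -0.18 to 0.29 over 40 pairs, 3 of them over 0.1. Their median r was 0.022, against -0.008 for other numbers, and 9 of 17 libraries correlated best with their own number. With 2 or 3 libraries per group, this check cannot decide whether the numbers mark pairs. The GC correction gave 6 for unstimulated KO against WT and 24 for the difference of response to both antibodies, the correction on the coding part 16 for the first, and the GC correction with the replicate block 5 for the first and 1 for anti-CD28 added in WT. Without a filter on low counts, KO against WT gave 18, 9 and 5 in the 3 states, anti-CD3 in KO 5, both antibodies in WT 14 and anti-CD28 added in WT 1. Limma with voom gave 35 for KO against WT with anti-CD3 and 46 with both antibodies. Over all 16246 tested genes it called 3641 higher and 2124 lower, and 4691 and 4718. It gave 33 for anti-CD3 in KO and 50 for both antibodies in KO. Over all tested genes it called 4089 higher and 3921 lower, and 4958 and 5185. It gave 34 and 46 for anti-CD28 added in KO and WT, where 20.1% of all tested genes were lower and 19.8% higher. For the difference of response to anti-CD3 it gave 1, where 1.43% were lower. DESeq2 gave 26 for anti-CD28 added in WT, where 2.97% of genes with an adjusted p were higher. Fits to only the groups compared gave 37 for KO against WT with anti-CD3, 0 with both antibodies, 9 for both antibodies in KO and 43 for anti-CD28 added in WT. Without the 2 libraries of most extreme GC trend the counts were 4 for KO against WT with both antibodies, 10 for both antibodies in KO and 37 for anti-CD28 added in WT. With each library left out in turn the counts ranged, in the first order given, from 2 to 42, 3 to 29, 0 to 36, 4 to 16, 5 to 10, 14 to 46, 7 to 32, 0 to 14, 0 to 34, 0 to 0 and 32 to 46. Where no share of all tested genes stands beside a count, here or above, its shift cannot be read as particular to histone genes. The causes of these shifts were not tested.

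Of 128 results for single genes, 73 lost and 2 gained their call under at least 1 alternative, and 6 turned their sign. For KO against WT with both antibodies Cdt1 was at 0.24 with the GC correction, 0.28 with that and the replicate block and 0.11 on the coding part, and H3f3b between -0.047 (without KO replicate 3) and 0.213 with each library left out and at -0.056 without the 2 libraries. With anti-CD3, H3f3b was at -0.082 on the coding part, and Npat at 0.050 on the coding part, 0.057 with the GC correction and 0.056 with that and the block. In the difference of response to both antibodies, Hist2h2bb was at 0.028 with the GC correction and Hist3h2a at 0.39 on the coding part. The WT both-antibody group held 2 libraries, low-level genes rest on few counts, near-identical copies can trade reads, and the design gives no way to separate histone level from the GC trend of a library.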
